A study of Mus musculus with 6 samples.

Results

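The 35 genes described here encode enzymes that make, lengthen, desaturate, activate, store and burn fatty acids, together with Srebf1, a transcription factor that turns on lipid synthesis. They were chosen by gene symbol from a list of pathway members, and all 35 were found among the 55571 symbols of the count table. By role, 16 belong to synthesis (supply of precursors and their control, chain synthesis, elongation and desaturation), 10 to activation and storage, and 9 to mitochondrial oxidation. The 10 include Pnpla2, which encodes a lipase that releases stored fatty acids. RNA was sequenced from E0771 cells, a mouse mammary carcinoma line, in 3 libraries with a vector control and 3 libraries expressing wild-type Malt1 (Malt1-WT). Both groups are engineered E0771 cells at basal condition, with no stimulus named in the labels. The sources used here do not give the promoter that drives Malt1, nor whether each group is 1 clone or a pool of cells. The comparison asks which of these genes differ between cells with introduced Malt1, a paracaspase upstream of NF-kB, and vector cells.

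Fatty acids are built in the cytosol. Acly and Acss2 supply acetyl-CoA, Acaca turns it into malonyl-CoA, Fasn joins the units into palmitate, and Elovl and Scd or Fads enzymes lengthen and desaturate the chain. Acyl-CoA synthetases (Acsl) activate fatty acids, which are then stored as triglyceride in lipid droplets or carried into mitochondria by Cpt1 and Cpt2 and broken down by beta-oxidation. Many carcinoma cells are known to keep synthesis active, and malonyl-CoA made next to mitochondria inhibits Cpt1, so the pathways are coupled.

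Total counts per library were 17601656 to 20543778. The 35 genes took 0.570% to 0.589% of all counts in the vector control against 0.400% to 0.417% in Malt1-WT. Scd2 and Fasn, the genes of highest count, weigh most in this share, so it does not describe each gene. Malt1 had 517, 633 and 611 counts in the vector control against 5526, 6176 and 5087 in Malt1-WT, and counts cannot separate the introduced from the endogenous transcript. The labels do not say whether the 3 libraries of a group are separate cultures, so p-values measure only the spread between these libraries, which may be technical. Levels are given as CPM, counts scaled to a common library size, and a signed number in parentheses after a pair of levels or counts is the log2 fold change of Malt1-WT over vector control. Of 10 mammary epithelial markers 3 passed the filter on low counts. Krt8 was at 68.6 ± 2.31 CPM in the vector control against 59.7 ± 1.83 CPM in Malt1-WT (SD, n = 3) and was called lower. Epcam, at 6.31 ± 0.319 and 6.23 ± 1.01 CPM, and Esr1 were not called. Krt19, Krt7, Cldn3 and Cldn4 had under 10 counts over all libraries, and Krt18, Cdh1 and Cldn7 had 26, 28 and 12. Of 8 fibroblast markers 6 passed, with 3 lower (Col1a1, Col3a1 and Pdgfra), 1 higher (Pdgfrb) and 2 not called. That list summed to 573 to 603 CPM in the vector control against 493 to 535 CPM in Malt1-WT.

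Synthesis genes were mostly lower in Malt1-WT and oxidation genes were lower or near their control level, while activation and storage genes went both ways. All 35 passed the filter. With edgeR's quasi-likelihood test at a Benjamini-Hochberg adjusted p under 0.05, 20 of the 35 were lower and 9 higher, where 30.2% of all 13594 tested genes were lower and 31% were higher. By side, 12 of 16 synthesis genes were lower and 3 higher, 3 of 10 activation and storage genes were lower and 6 higher, and 5 of 9 oxidation genes were lower and 0 higher. The median log2 fold change was -0.63 for synthesis, 0.32 for activation and storage and -0.16 for oxidation, against 0.00 over all tested genes (-0.0029). Since 61.2% of all genes were called in either direction, a test against a 1.5-fold change was used as well. It called 9 members lower, 8 of them on the synthesis side, and 4 higher, where it called 6.33% and 10.2% of all genes. The counts of 9, 6 and 4 higher genes include Dgat2, which passed the filter on low counts only through the Malt1-WT libraries, and without it 8 of the 35 genes and 5 of the activation and storage genes were higher. The activation and storage median of 0.32 includes Dgat2 too, and without Dgat2 the median is the value of Acsl4, 0.13. For 32 of the 35 genes, Dgat2 among them, the groups did not overlap in CPM, against 64.4% of all genes. RNA from bulk cells cannot tell fewer cells with a transcript from less of it in each cell.

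**Figure D1:**
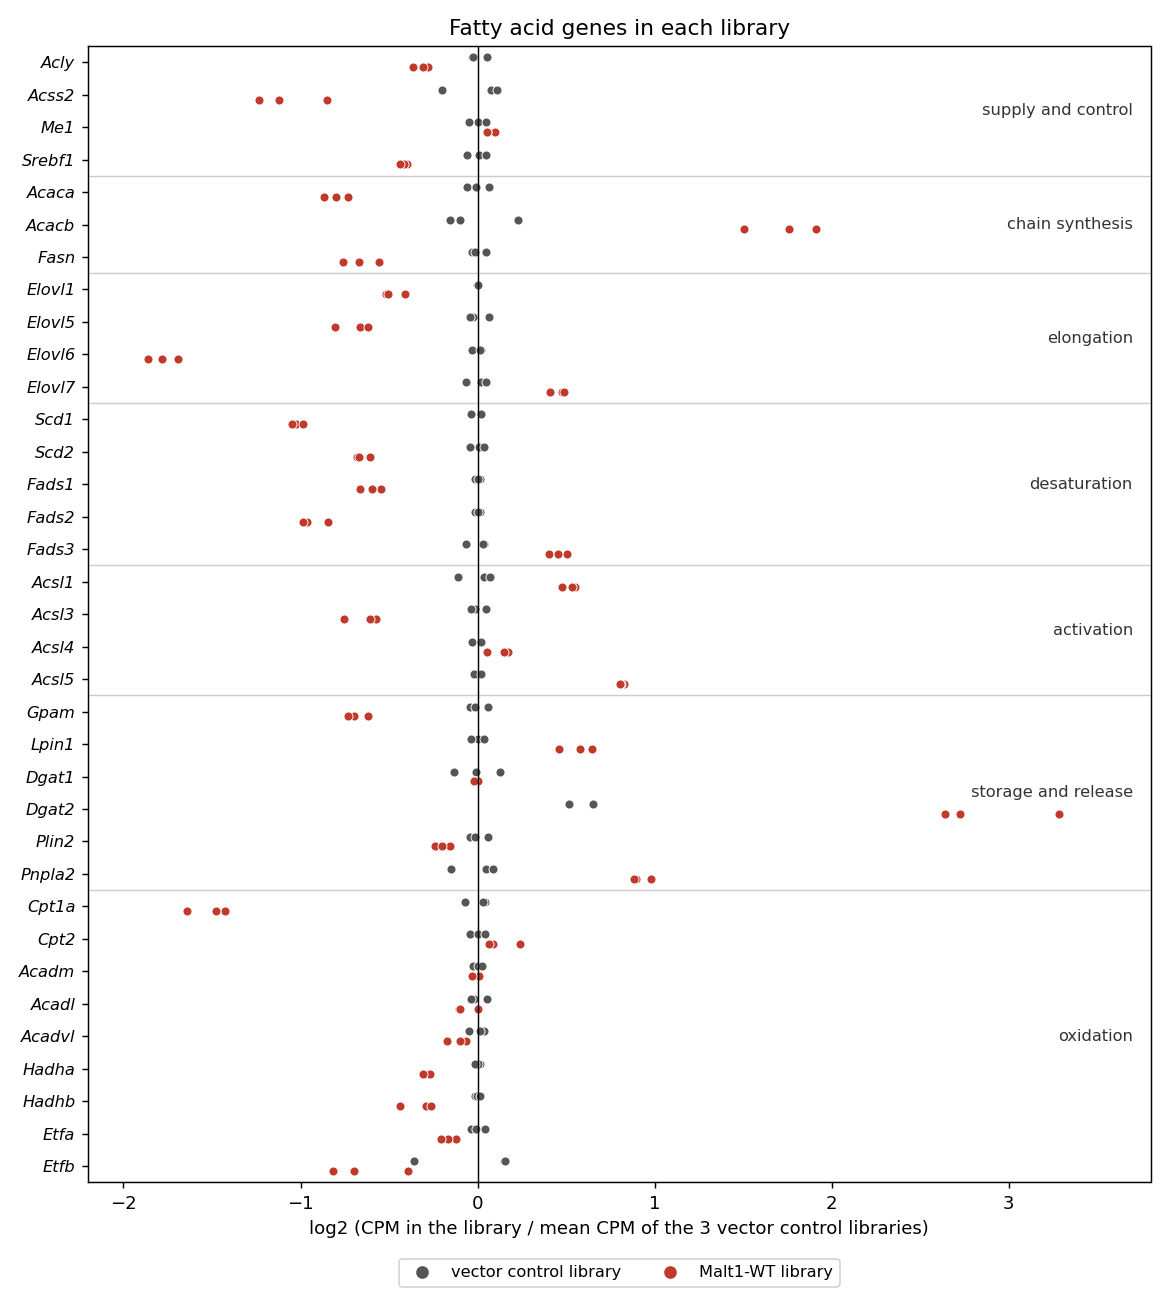
CPM of each of the 35 genes in each of the 6 libraries, as log2 of its ratio to the mean of the 3 vector control libraries, ordered by role. Grey points are vector control and red points Malt1-WT; the Dgat2 value of vector control replicate 1, a count of 0, cannot be drawn. Elovl6 and Cpt1a lie farthest to the left, Dgat2 and Acacb farthest to the right, and most oxidation genes stay near the line.

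Among the genes that supply and control synthesis, 3 of 4 fell, where 30.2% of all tested genes were lower. Acss2, which makes acetyl-CoA from acetate, had 484, 449 and 551 counts in the vector control against 209, 216 and 241 in Malt1-WT. Its level went from 25.4 ± 2.91 to 12.2 ± 1.71 CPM (log2 fold change -1.06, SE 0.095, edgeR adjusted p = 4.96e-14). Every Malt1-WT library lay under every control library. Acly, the citrate lyase that is the other source of cytosolic acetyl-CoA, fell by less, from 237 ± 7.96 to 190 ± 5.88 CPM (-0.32). Srebf1 itself fell from 169 ± 6.12 to 127 ± 1.81 CPM (-0.42, SE 0.036). Me1, the malic enzyme that provides NADPH, was not called, at 104 ± 3.52 and 108 ± 2.06 CPM (0.07, edgeR adjusted p = 0.142). The opposite-strand genes Acss2os, Ggt7 and Gss overlap 9.12% of the Acss2 exon bases, and the summed counts of Gss and Ggt7 were 1287 and 711 in the vector control against 1542 and 787 in Malt1-WT.

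The enzymes of chain synthesis split between the cytosolic and the mitochondrion-associated form of acetyl-CoA carboxylase. Acaca, the cytosolic form, had 4250, 4382 and 4492 counts in the vector control against 2202, 2708 and 2202 in Malt1-WT. That is 224 ± 9.75 against 129 ± 6.02 CPM (-0.80, SE 0.037, edgeR adjusted p = 9.08e-25). Acacb, the form at the outer mitochondrial membrane, rose from 18, 21 and 26 counts to 56, 75 and 71. Its log2 fold change was 1.72 (SE 0.245, edgeR adjusted p = 2.62e-08), at a level of 1.11 ± 0.163 CPM in the vector control against 3.68 ± 0.513 CPM in Malt1-WT. The groups did not overlap for either gene. Per length, Acaca stood 114-fold above Acacb in the vector control and 19.8-fold above it in Malt1-WT, as the ratio of mean RPKM (CPM divided by kilobases of exon). For Acaca, 23.7% of the 100-base words of its transcripts also occur in the gene models Gm5182 and Gm42553, of which Gm42553 had 0 counts and Gm5182 had 120 counts in the vector control libraries together and 57 in Malt1-WT.

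Fasn, the synthase that makes palmitate, had 14339, 15255 and 15263 counts in the vector control against 8096, 10418 and 8243 in Malt1-WT. Its level fell from 767 ± 22.2 to 485 ± 33.7 CPM (-0.66, SE 0.036, edgeR adjusted p = 5.38e-15). All 3 Malt1-WT libraries lay under the controls, replicate 2 being the highest of them at 520 CPM.

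Of the elongases, 3 of 4 fell, beside 30.2% of all tested genes. Elovl6 (GRCm38, chr3:129532355-129638495, plus strand), which extends palmitate to stearate, showed the largest decrease of the 35 genes. It had 3400, 3689 and 3754 counts in the vector control against 962, 1149 and 870 in Malt1-WT, and 4.93% of all tested genes changed by more in either direction. The decrease was 3.42-fold (log2 fold change -1.77, SE 0.042, edgeR adjusted p = 1.15e-37). Elovl5, which extends polyunsaturated chains, went from 2808, 2970 and 2897 counts to 1676, 1935 and 1451 (148 ± 5.87 to 91.7 ± 6.13 CPM, -0.69). Elovl1, an elongase of very long saturated chains, fell from 94.0 ± 0.177 to 67.5 ± 2.86 CPM (-0.48). Cdc20, on the opposite strand, overlaps 1.94% of the Elovl1 exon bases and went from 10695 to 1937 counts, summed over 3 libraries. Its part in the Elovl1 value was not tested. Elovl7 was the member of the group that rose, from 10.7 ± 0.443 to 14.7 ± 0.416 CPM (0.46, SE 0.099, edgeR adjusted p = 7.42e-05).

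The bases before the start of Fasn and Elovl5, which fell by a similar amount, and of Elovl6, which fell most, are shown because the 3 genes differ in the letters searched for. They were taken from the RefSeq promoters of GRCm38.p6 and end before both the RefSeq and the GENCODE start. Capitals mark CCAAT, the motif bound by NF-Y, a partner of SREBP at lipid gene promoters, or its reverse complement ATTGG. Fasn is on chromosome 11, minus strand, with the stretch at chr11:120824548-120824797. Elovl5 is on chromosome 9, plus strand (chr9:77917115-77917363), and Elovl6 on chromosome 3, plus strand (chr3:129532136-129532354).
Fasn: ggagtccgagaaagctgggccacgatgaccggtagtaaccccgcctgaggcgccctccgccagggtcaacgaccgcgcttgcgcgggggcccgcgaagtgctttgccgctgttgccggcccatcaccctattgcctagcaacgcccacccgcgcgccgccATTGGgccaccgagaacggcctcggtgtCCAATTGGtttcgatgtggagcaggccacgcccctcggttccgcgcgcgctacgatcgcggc
Elovl5: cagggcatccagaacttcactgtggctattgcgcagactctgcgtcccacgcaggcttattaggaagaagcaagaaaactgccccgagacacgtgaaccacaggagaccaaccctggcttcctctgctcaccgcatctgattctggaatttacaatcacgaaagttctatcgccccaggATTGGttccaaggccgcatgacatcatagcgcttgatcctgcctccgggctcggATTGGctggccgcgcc
Elovl6: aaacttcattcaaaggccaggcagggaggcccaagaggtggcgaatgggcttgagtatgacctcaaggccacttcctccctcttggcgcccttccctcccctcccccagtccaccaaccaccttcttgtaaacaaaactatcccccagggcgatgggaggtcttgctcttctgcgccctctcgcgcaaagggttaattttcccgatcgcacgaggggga

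In Fasn the matches begin 90, 62 and 59 bases before the RefSeq start, and the last 2 share bases because CCAATTGG reads the same on both strands. Elovl5 has matches 71 and 17 bases before its start and Elovl6 has none. RefSeq promoters of 300 bases (250 before and 50 after the start) were found for 30 of the 35 genes, and Scd1, Scd2, Fads1, Dgat1 and Dgat2 had none. CCAAT on either strand occurred for 9 of 13 synthesis genes, 5 of 8 activation and storage genes and 3 of 9 oxidation genes, against 41.1% of all 27025 genes with a promoter and 37.4% of all 32851 promoters. The synthesis genes with a match include Acacb and Fads3, which rose, Me1, which was not called, and otherwise genes that fell. Of those without one, Acaca, Elovl6 and Fads2 fell and Elovl7 rose. The RefSeq starts used lie 65766 (Acaca), 18983 (Acacb) and 8676 (the Me1 match) bases from the GENCODE starts. Whether the motif bears on the changes was not tested. TCACNCCAC, a form of the sterol regulatory element bound by SREBP, occurred for 0 of 13 synthesis and 0 of 9 oxidation genes and for 1 of 8 activation and storage genes, against 1.44% of all genes. At so low a share, 0 of 13 does not show that these promoters lack SREBP sites. Other forms of the element were not searched for.

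The desaturases fell in 4 of 5 cases, beside 30.2% of all tested genes. Scd2, the most abundant of the 35 genes per length, had 34557, 37505 and 39204 counts in the vector control against 21148, 24936 and 20422 in Malt1-WT. Its level went from 348 ± 9.94 to 221 ± 6.04 RPKM (log2 fold change -0.65, SE 0.026, edgeR adjusted p = 3.15e-28). Scd1, also a delta-9 desaturase, fell further, from 6283, 6797 and 6974 counts to 3011, 3469 and 2828 (-1.02, SE 0.032, edgeR adjusted p = 4.42e-32). The ratio of Scd2 to Scd1 in mean RPKM was 4.97 in the vector control against 6.40 in Malt1-WT. Of the further delta-9 desaturases, Scd4 had 28, 18 and 21 counts against 18, 11 and 8 and was not called (-0.77, edgeR adjusted p = 0.0794), and Scd3 had at most 10 counts in any library. Scd1 and Scd2 lie on chromosome 19, 87590 bases apart, and share 0.88% (Scd2) and 2.58% (Scd1) of their 100-base words with other Scd genes or transcripts.

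Fads1, Fads2 and Fads3 are neighbours on the same chromosome, with gaps of 2654 bases between Fads3 and Fads2 and 81141 bases between Fads2 and Fads1. Fads2, the delta-6 desaturase, fell from 2383, 2733 and 2673 counts to 1322, 1367 and 1149 (133 ± 1.33 to 69.8 ± 3.63 CPM, -0.93). Fads1, the delta-5 desaturase, fell from 1772, 1958 and 1951 to 1190, 1283 and 1045 (97.0 ± 0.832 to 63.9 ± 2.73 CPM, -0.60). Fads3 rose over the same stretch, from 94.6 ± 3.75 to 130 ± 4.58 CPM (0.46, SE 0.040, edgeR adjusted p = 3.04e-14). In each of the 3 genes the groups did not overlap, with Fads3 the one of higher level in Malt1-WT.

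Activation genes rose in 3 of 4 cases, where 31% of all tested genes were higher. Acsl5, an acyl-CoA synthetase of mitochondria and endoplasmic reticulum, had 3843, 4255 and 4330 counts in the vector control against 6727, 7450 and 6340 in Malt1-WT. It rose from 212 ± 3.18 to 373 ± 2.90 CPM (0.81, SE 0.031, edgeR adjusted p = 6.58e-29) and moved from rank 5 to rank 2 in level per length among the 35. Acsl1 rose from 43.4 ± 2.85 to 62.2 ± 1.62 CPM (0.52). Acsl4, which prefers arachidonic acid, was 0.13 higher (SE 0.036, edgeR adjusted p = 0.00209), a call lost with library size as the only scaling (0.05, adjusted p = 0.227). Acsl3, which works at forming lipid droplets, went the other way, from 416, 488 and 455 counts to 246, 312 and 260 (-0.64, SE 0.084, edgeR adjusted p = 3.47e-09). Utp14b, on the same strand, overlaps 5.6% of the Acsl3 exon bases and went from 378 to 230 counts, summed by group. Opposite-strand genes overlap 8.31% of the Acsl5 exon bases (Zdhhc6, 3570 and 3518 counts) and 9.91% of those of Acsl1 (Gm45244, 1 and 3 counts). The part of these overlaps in the values was not tested. Gpam lies 124699 bases from Acsl5 on chromosome 19 and changed in the opposite direction to it.

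Storage genes were mixed along the order of the pathway. Gpam, the mitochondrial acyltransferase of the first step of glycerolipid synthesis, fell from 803, 920 and 959 counts to 503, 552 and 510 (45.7 ± 1.75 to 28.5 ± 1.18 CPM, -0.68). Lpin1, the phosphatase that yields diacylglycerol, rose from 39.9 ± 1.08 to 59.0 ± 3.75 CPM (0.56). Of the acyltransferases of the last step, Dgat1 was at 14.2 ± 1.26 and 14.1 ± 0.109 CPM (-0.0031, edgeR adjusted p = 0.982). Dgat2 rose from 0, 10 and 9 counts to 37, 39 and 52 (2.83, SE 0.417, edgeR adjusted p = 7.10e-08). Since it passed the filter only through the Malt1-WT libraries, a difference was built into its being tested. Leaving out single libraries moved its log2 fold change between 2.29 and 3.28. In mean RPKM, Dgat1 stood 45.7-fold above Dgat2 in the vector control and 6.05-fold above it in Malt1-WT.

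Plin2, a coat protein of lipid droplets, fell slightly, from 107 ± 3.79 to 93.0 ± 2.77 CPM (-0.20). Pnpla2, which encodes the lipase that begins the release of stored fatty acids, rose from 469, 541 and 454 counts to 832, 986 and 790. Its level was 25.0 ± 2.14 CPM in the vector control against 47.3 ± 1.66 CPM in Malt1-WT (0.92, SE 0.066, edgeR adjusted p = 1.19e-17). All 3 Malt1-WT libraries lay above the controls.

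**Figure D2:**
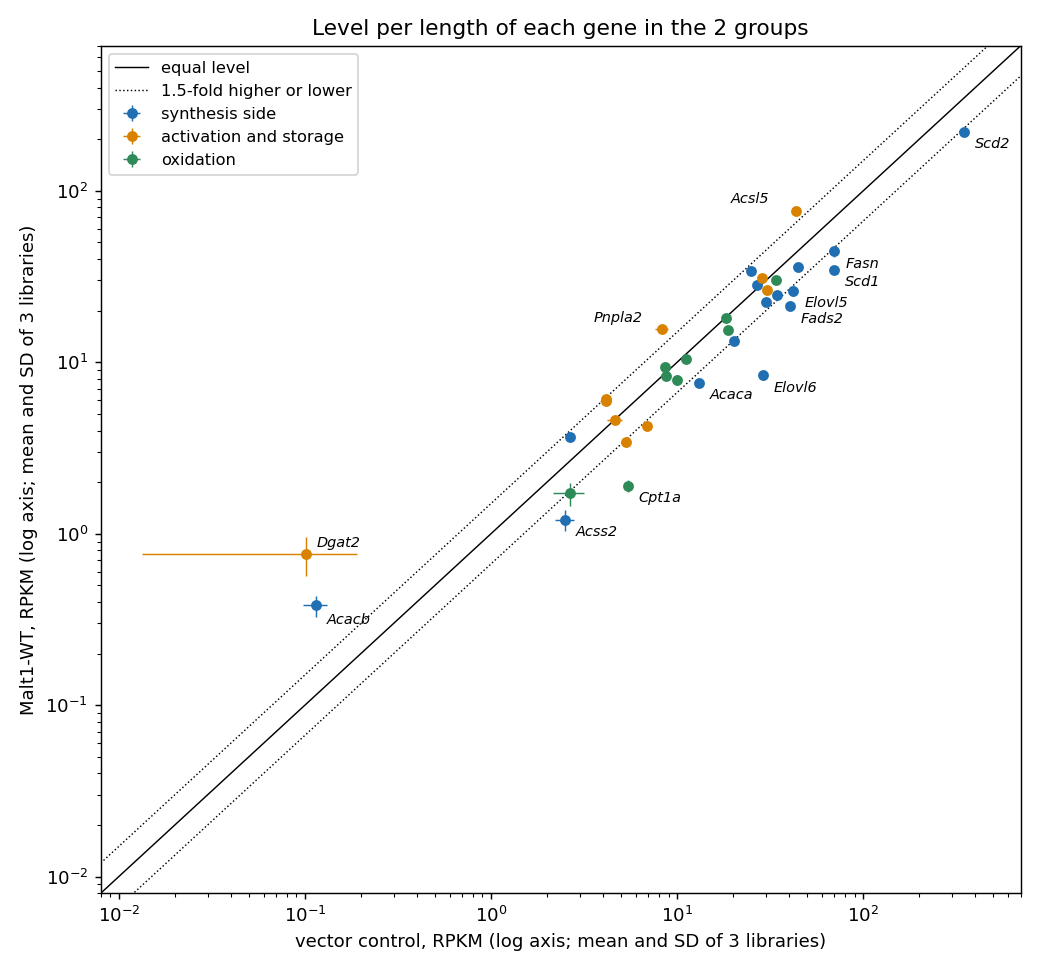
Level per length (RPKM, log axes) of each of the 35 genes in the vector control and in Malt1-WT, as mean and SD of 3 libraries, coloured by side; genes called beyond 1.5-fold are named. Blue synthesis genes mostly lie under the line of equal level at high RPKM, while Dgat2 and Acacb rise at under 1 RPKM.

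Of the oxidation genes 5 of 9 fell, with the largest decrease at the entry step, and 4 were not called. Called in either direction were 55.6% of the 9, against 61.2% of all tested genes, of which 30.2% were lower. Cpt1a (GRCm38, chr19:3322334-3385733, plus strand), the carnitine palmitoyltransferase that admits long-chain fatty acids to mitochondria, had 772, 860 and 793 counts in the vector control against 276, 298 and 227 in Malt1-WT. It fell from 41.4 ± 1.74 to 14.5 ± 1.12 CPM, 2.85-fold (-1.51, SE 0.074, edgeR adjusted p = 6.23e-24). Cpt2, which completes that transfer inside, was not called, with 363, 420 and 426 counts against 435, 438 and 368 (0.13, edgeR adjusted p = 0.154). Scaled to CPM, its groups did not overlap. Cpt1b, the muscle form of the entry enzyme, had at most 5 counts in any library.

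The acyl-CoA dehydrogenases, which carry out the first step of each round of beta-oxidation, were not called. Acadm (medium chain) had 1277, 1462 and 1466 counts in the vector control against 1277, 1444 and 1198 in Malt1-WT (-0.01, SE 0.045). Acadl (long chain) had 330, 353 and 344 against 292, 328 and 301 (-0.07, SE 0.086). Acadvl (very long chain) had 559, 593 and 612 against 515, 563 and 458 (-0.11, SE 0.068). The groups overlapped for Acadm and Acadl but not for Acadvl, which was called lower with library size as the only scaling (-0.19, edgeR adjusted p = 0.0154). Dvl2, on the opposite strand, overlaps 42.85% of the Acadvl exon bases and had 3520 counts over the control libraries against 3141. Its part in the Acadvl value was not tested.

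Hadha and Hadhb, the alpha and beta subunits of the mitochondrial trifunctional protein, fell by similar amounts. Hadha had 3000, 3345 and 3267 counts in the vector control against 2388, 2724 and 2262 in Malt1-WT (-0.29, SE 0.035, edgeR adjusted p = 3.97e-10). Hadhb had 1178, 1333 and 1333 against 960, 969 and 936 (-0.33, SE 0.052, edgeR adjusted p = 2.29e-07). Neither pair of groups overlapped. The genes are transcribed away from each other on chromosome 5. The 85 bases between their GENCODE starts (GRCm38, chr5:30155163-30155247, plus strand) are shown because both genes begin at its ends in GENCODE. The RefSeq starts lie 182 (Hadha) and 5 (Hadhb) bases from the GENCODE starts. No CCAAT was found in the RefSeq promoter window of either gene.
Hadha-Hadhb: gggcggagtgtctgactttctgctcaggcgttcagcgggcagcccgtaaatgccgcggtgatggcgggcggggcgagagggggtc

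Etfa and Etfb, which together form the flavoprotein that takes electrons from the dehydrogenases, were both lower. Etfa had 1098, 1258 and 1285 counts in the vector control against 1021, 1109 and 921 in Malt1-WT (-0.16, SE 0.050, edgeR adjusted p = 0.00410). Etfb had 62, 49 and 69 counts against 34, 47 and 30 (-0.61, SE 0.228, edgeR adjusted p = 0.0178). Etfb was the least certain call. It was lost with DESeq2 (adjusted p = 0.0923) and without Malt1-WT replicate 3 (0.0651), vector control replicate 1 (0.0660) or vector control replicate 3 (0.0805), with a range of adjusted p from 0.00491 to 0.0923 over the alternatives. Gm45233 and Mir7051, same-strand genes with 0 counts in every library, overlap 58.25% of the Etfb exon bases, and 35.8% of its 100-base words also occur in Gm45233. Per length, Etfa was at 33.8 ± 0.909 RPKM and Etfb at 2.65 ± 0.506 RPKM in the vector control. Since reads of overlapping genes cannot be assigned with certainty, the Etfb level may be too low, which was not tested.

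Synthesis set against oxidation gave different answers by measure. Summed over genes, the level per length of the synthesis side was 804, 783 and 809 RPKM in the vector control against 521, 541 and 520 RPKM in Malt1-WT, a change of -34.0%. Scd2 made up 43.0% to 44.1% of that sum in the vector control, and without it the change was -32.1%. The oxidation sum went from 117, 116 and 119 RPKM to 106, 103 and 102 RPKM, a change of -12.0% (-9.43% without Cpt1a). The ratio of the sums was 6.79 ± 0.064 in the vector control against 5.10 ± 0.151 in Malt1-WT (SD, n = 3), with no overlap between libraries. The activation and storage sum rose by 28.7%, and by 6.46% without Acsl5. Both sums include Pnpla2, the lipase gene of release, at 8.28 ± 0.707 RPKM in the vector control against 15.7 ± 0.549 RPKM in Malt1-WT. With Acsl5 and Pnpla2 both left out, the sum was slightly lower in Malt1-WT, so the rise rests on these genes.

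Measures that count each gene equally also differed. The median log2 fold change was -0.63 for the synthesis and -0.16 for the oxidation genes, and the synthesis median was the lower in each of the 12 refits. As a difference of levels, the mean log2 CPM of the synthesis genes minus that of the oxidation genes was 1.66, 1.69 and 1.68 in the vector control against 1.53, 1.58 and 1.62 in Malt1-WT, a change of -0.10. Without Acacb the change was -0.23. With the median level over genes in place of the mean level it was 0.08, in the opposite direction. The direction thus depended on the summary for this difference of levels, while summed RPKM and the median of the changes both put synthesis lower, and no p is given, since the members were chosen by name with results known.

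**Figure D3:**
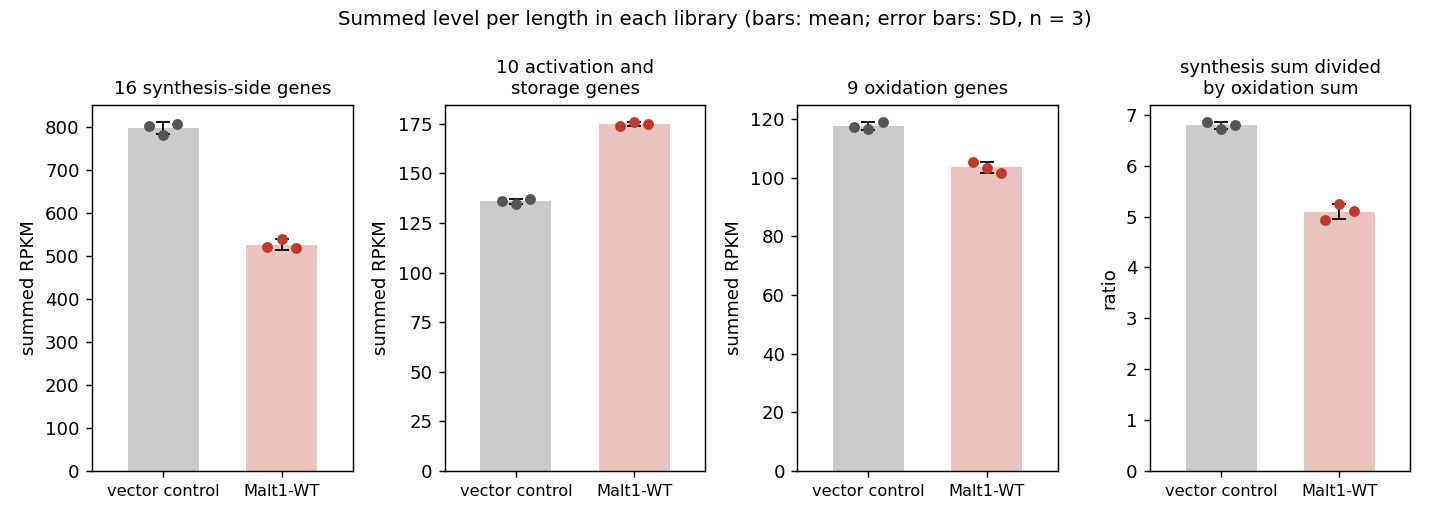
Summed RPKM of the synthesis, activation and storage, and oxidation genes in each library, and the ratio of the synthesis to the oxidation sum; points are libraries, bars means and error bars SD (n = 3). The synthesis sum is 783 to 809 RPKM in the vector control against 520 to 541 RPKM in Malt1-WT, and the ratio is lower in every Malt1-WT library.

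Other genes of the pathway followed the same roles only in part. Beside the 30.2% of all tested genes that were lower and 31% that were higher, 7 of 20 tested further synthesis genes were lower and 7 higher, a share near that of all genes. Those lower include Insig1, which retains the SREBP complex in the endoplasmic reticulum (91.8 ± 2.44 to 54.2 ± 2.31 CPM, -0.76), and Tecr, the reductase that closes each elongation round (99.2 ± 1.52 to 59.0 ± 0.755 CPM, -0.75). Of 26 tested genes of uptake and storage, 16 were higher and 2 lower, against the same 31% and 30.2%. That list also holds the lipase genes Lipe (higher) and Mgll (lower). Some calls were of genes that passed the filter on low counts only through the group where they were high, namely Elovl3 and Fabp3 (higher) and Mgll and Abcd2 (lower). Without them 6 synthesis genes and 15 uptake and storage genes were higher, 1 uptake and storage gene was lower, and 6 peroxisomal genes were lower. Hilpda, a lipid droplet protein that inhibits the lipase encoded by Pnpla2, rose from 27.0 ± 1.29 to 156 ± 3.90 CPM (2.53, SE 0.048, edgeR adjusted p = 4.19e-42). Also higher were Mogat2 (1.51), Fabp4 (1.13), Acsbg1 (1.01) and Gpat3 (0.86), an acyltransferase of the endoplasmic reticulum for the step that Gpam performs in mitochondria.

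Of 23 tested further mitochondrial genes, 11 were lower and 4 higher, and of 13 peroxisomal genes 7 were lower and 2 higher, where 30.2% of all genes were lower and 31% higher. Hadh, the short-chain dehydrogenase of the third step of beta-oxidation, fell from 78.3 ± 2.98 to 39.1 ± 3.42 CPM (-0.997, SE 0.055, edgeR adjusted p = 5.70e-22). Ppard, a nuclear receptor that promotes fatty acid use, rose from 74.5 ± 0.914 to 199 ± 8.26 CPM (1.41). The peroxisomal oxidase gene Acox3 rose by 1.08 on the log2 scale. Medians were 0.08 and 0.22 for the further synthesis and the uptake and storage genes, and -0.15 and -0.22 for the mitochondrial and peroxisomal ones.

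**Figure D4:**
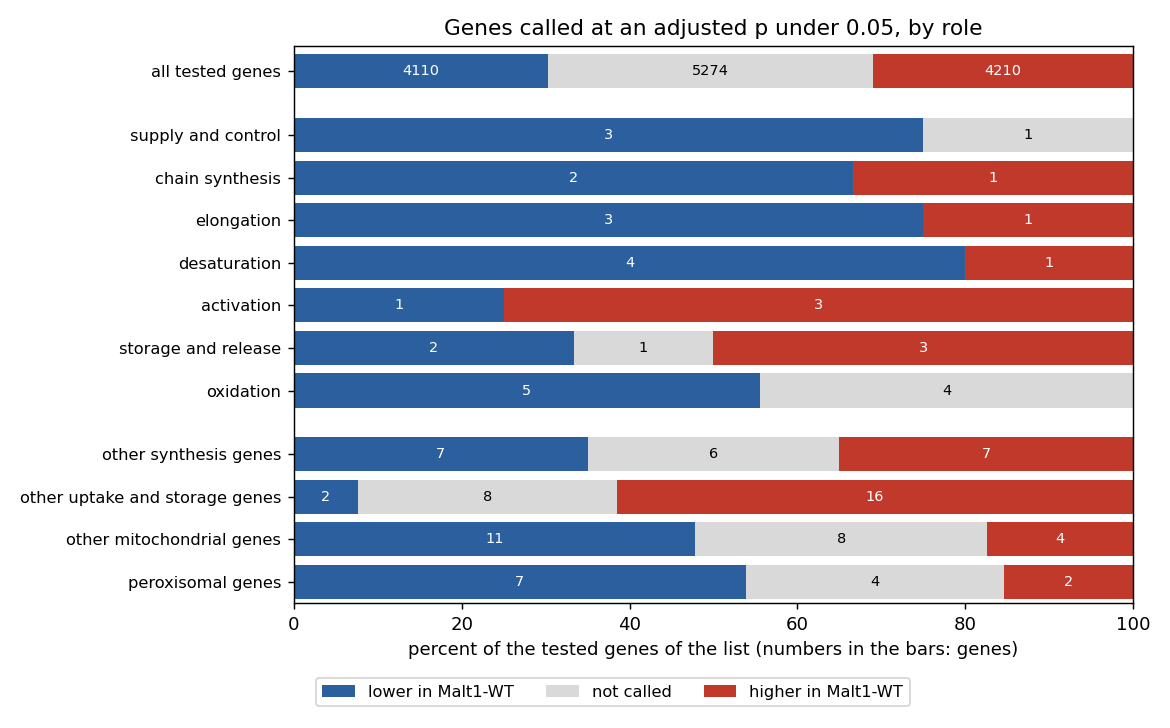
Percent of tested genes called lower (blue), higher (red) or not called (grey) by the edgeR test at an adjusted p under 0.05, for all tested genes, the 7 roles of the 35 genes and 4 lists of further pathway genes; numbers in the bars are genes. The elongation and desaturation bars are mostly blue, the uptake and storage bar mostly red, and the oxidation bar has no red.

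Fabp4 is also listed as an adipocyte marker, and the summed level of that list was 182 to 202 CPM in the vector control against 412 to 428 CPM in Malt1-WT. It was the 1 of 8 adipocyte markers that passed the filter. Adipoq, Cidec and Retn had 0 counts in every library, and Plin1, Pparg, Lep and Cfd had under 10 in all. Leukocyte markers summed to 8.06 to 10.3 CPM in the vector control against 16.8 to 19.3 CPM in Malt1-WT, with Tyrobp at 0 and Ptprc under 10 counts. Of the 4 tested leukocyte genes 2 were higher and 1 lower, but Adgre1 (2, 1 and 0 counts against 21, 32 and 28) and Lyz2 each passed the filter only through the group where they were high, which leaves Cd68 as the 1 other call. The part of leukocyte transcripts in these results was not tested.

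The authors' deposited table gives an adjusted p under 0.05 for 2 of the 35 genes, against 1.13% of its 55571 genes. These are Elovl6 (log2 fold change -1.79, adjusted p = 8.18e-04) and Cpt1a (-1.52, adjusted p = 0.0178) in the authors' deposited table. That table's t statistic is 0 for each of the 50005 genes whose log2 fold change lies between -1 and 1. For no gene at or above 1 in absolute value is it 0, the pattern of a test against a minimum change. Its calls are thus not comparable with those of the plain edgeR test. Its share is also over all 55571 symbols, not the 13594 genes that passed the filter here. Of the 35 genes, 6 have an absolute log2 fold change of at least 1 in the authors' deposited table.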

How the data were processed

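Per the labels' protocols, RNAiso Plus served for RNA extraction, the NEBNext Ultra II Directional kit for library preparation, and a NovaSeq for paired-end reads of 150 bases. The submitters' processing notes list STAR 2.7.3a, Trim Galore 0.6.0 and featureCounts 1.6.3, with build GRCm38.p6 (mm10). The sources used here do not give the annotation and strand setting of featureCounts, so reads of overlapping genes cannot be assigned with certainty. The authors deposited raw counts per gene symbol for 6 libraries, per the file headers. They also deposited a log2 fold change and mean log2 expression, a t score, a p-value and an adjusted p-value per gene, per the file headers.

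The count analysis used edgeR 4.0.16 (R 4.3.3). After filterByExpr (minimum count 10), 13594 genes remained, were scaled by TMM and tested by the robust quasi-likelihood test without a block. The same fit was tested against a 1.5-fold change with glmTreat. CPM are TMM-scaled, and values are mean ± SD over 3 libraries. The SE is the log2 fold change divided by the square root of F. RPKM used merged exon lengths of GENCODE M21 (GRCm38), which can exceed the length of the transcripts present. DESeq2 1.42.0, 3 other scalings, no filter, a replicate block and leaving out each library were the alternatives. The tests were checked on simulated data. No library was a copy of another (within-group chi-square per degree of freedom 2.19 to 3.02). Genes named are all 35 members, with counts per library for those called and changed at least 1.5-fold and for oxidation genes, and, beside them, the 10 further pathway genes of largest change among those called whose mean log2 CPM reached 1. Any other gene was picked with its values in view. The members and lists were chosen with earlier results of these data known. The position and sequence of 1 promoter match are not reported here.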

Additional observations from a re-analysis of the deposited data

How the results depend on the processing

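Over the 12 alternatives that refitted the test, 12 synthesis genes were lower in each, 19 to 21 of the 35 genes were lower, 8 or 9 higher and 4 to 6 oxidation genes lower. The 1.5-fold test called 6 (DESeq2) to 11 (library size only) members lower and 4 higher. Of 420 values of single genes under these alternatives, 412 kept their direction and side of the threshold. The exceptions beside those given for Acsl4, Acadvl and Etfb are Me1 with library size only (-0.0084) and Dgat1 without vector control replicate 1 (0.0548, with -0.0675 to 0.0548 over left-out libraries), neither of which was called. Library size only moved the synthesis median to -0.70 and the oxidation median to -0.24, since it shifted the members' median by -0.08. The synthesis minus oxidation difference was -0.23 without Acacb and 0.0752 with the median over members, and -0.12 to -0.07 when single libraries were left out. The cause was not tested. Same-numbered libraries of the groups did not deviate together (correlations -0.06, -0.04 and 0.03), against -0.04 to 0.08 for libraries of different number. With so few libraries per group, this cannot tell whether same-numbered libraries were prepared together. With the replicate block, 20 genes were lower and 9 higher, as without it. Low counts limit the values of Acacb, Dgat2 and Etfb.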
